A study of Homo sapiens with 4 samples.

Results

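The numbered zinc finger genes of human chromosome 19 were taken as all protein-coding genes of the deposited table whose symbol is ZNF followed by a digit and whose listed chromosome is 19. This rule found 167 genes with 419 listed transcripts among the 16371 genes of the table, and it used no measured value. RNA had been isolated from clusters grown by A549, a human line derived from a lung adenocarcinoma, carrying shDUSP23 (labelled as a knockdown of DUSP23, a dual-specificity phosphatase gene) or shMock (labelled wild type), with 2 libraries per group. All libraries share the 1 cell line, and the sources used here do not give the construct sequences, the number of hairpins or clones, or what SUS in the titles stands for. They do not say whether same-group libraries came from separate cultures, so p-values cover no more than the spread among these 4 libraries, which may be technical. In RNA of whole clusters, fewer cells of a type and less RNA per cell cannot be told apart.

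Most ZNF genes encode proteins with a tandem array of zinc fingers, each a short fold held by paired cysteines and histidines around a zinc ion that reads a few bases of DNA. Many of these proteins also carry a KRAB domain, which binds the scaffold protein TRIM28. TRIM28 gathers the histone methyltransferase SETDB1, HP1 proteins and the NuRD deacetylase complex, and transposable elements are among the sites silenced this way. Chromosome 19 holds the densest clusters of such genes, which arose by tandem duplication, so neighbours often resemble each other in sequence.

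The repeat that defines the family is shown for 4 members on which the results turn: the most abundant member (ZNF146), the member with the largest fall among the called members above 2 FPKM (ZNF226), and abundant members that rose (ZNF274 and ZNF558). FPKM is a fragment number scaled by transcript length and library size. Each line is the coding DNA of the first finger matching the pattern in the longest complete coding sequence of GENCODE release 29 (GRCh38), read in the direction of the gene, with the codons of the 2 cysteines and 2 histidines in capitals.
ZNF146 (chr19:36236492-36236554, plus strand): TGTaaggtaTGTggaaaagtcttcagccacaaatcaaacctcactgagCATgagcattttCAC
ZNF226 (chr19:44176187-44176249, plus strand): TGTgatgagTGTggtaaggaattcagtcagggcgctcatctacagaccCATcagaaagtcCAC
ZNF274 (chr19:58212706-58212768, plus strand): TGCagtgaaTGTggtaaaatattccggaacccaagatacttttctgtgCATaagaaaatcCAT
ZNF558 (chr19:8811968-8812030, minus strand): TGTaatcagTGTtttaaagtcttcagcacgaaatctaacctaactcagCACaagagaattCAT

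By this pattern the longest coding sequences held from 1 to 29 fingers, with a median of 12, against a median of 9 for the ZNF genes of other chromosomes. A KRAB A box pattern was found in 103 of the 167 members, and in 120 when its tryptophan was allowed to be any residue. Of the 225 ZNF genes of other chromosomes with a coding sequence, 76 matched the second pattern. The letters between the cysteine and histidine codons differ among the 4 fingers shown, and they include the residues that read DNA.

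The members were weakly expressed. Their median level over the 4 libraries was 3.24 FPKM, against 11.2 FPKM for all protein-coding genes of the table. Of the 167 members 111 lay under 5 FPKM and 6 reached 20 FPKM or more. A mean of at least 1 FPKM was required for testing, and 136 members passed. In 10 of these one group mean was under 1 FPKM, and 3 of the 10 were called. The 31 members not tested had means from 0.0977 to 0.991 FPKM. Both shDUSP23 libraries lay above both shMock libraries in 9 of these 31 and below in 5, where 39.3% and 36.2% of all tested genes did so. The shares over all untested genes are not given here. Values at 0 in at least 1 library occurred in 11 members, of which 3 were tested.

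Sequencing depth differed between the libraries. The steps between low FPKM values gave 21286400 and 25286900 fragments for shMock 1 and 2 and 26970600 and 42300100 for shDUSP23 1 and 2, and the tested members had a median of 229 fragments in their lowest library. DUSP23 itself was at 29.96 and 35.9 FPKM in shMock and at 1.71 and 2.71 FPKM in shDUSP23, a log2 fold change of -3.64 (SE 0.22; limma, Benjamini-Hochberg adjusted p = 3.12e-05). The 5 epithelial markers checked were listed, and 4 of them were lower in both shDUSP23 libraries than in both controls: CDH1 went from 22.4 and 21.5 FPKM to 6.198 and 8.14 FPKM, EPCAM from 5.83 and 7.05 FPKM to 3.47 and 3.999 FPKM, KRT8 from 1144 and 1153 FPKM to 917 and 999 FPKM, and KRT18 from 976 and 922 FPKM to 702 and 696 FPKM. KRT19 overlapped between the groups. Of all tested genes, 36.2% were likewise lower in both shDUSP23 libraries. The sum of all FPKM was lower in shDUSP23 too, and the markers are not given here after rescaling to equal sums. The smaller shifts of KRT8 and KRT18 are therefore not separated from the scale. PTPRC, CD3E, PECAM1 and VWF were not in the table, COL3A1 and PDGFRB stayed under 1 FPKM, and COL1A1 was higher in both shDUSP23 libraries (2.93 and 2.48 against 3.91 and 4.66 FPKM). The part of these shifts in the results on the members was not tested. Log2 values of all tested genes correlated at 0.99 and 0.97 within the groups and at 0.88 to 0.91 across them (Pearson, across genes, which are not independent replicates). The sum of all FPKM was 540163 and 578361 in shMock and 438604 and 446982 in shDUSP23, and mitochondrial transcripts held 12.3% and 13.1% of it against 8.12% and 7.97%.

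Summed over the 167 members, the level was 859 and 831 FPKM in shMock and 991 and 956 FPKM in shDUSP23. Both shDUSP23 libraries were thus above both shMock libraries, whereas the sum over all genes was lower in shDUSP23. Of all FPKM the members held 0.159% and 0.144% in shMock and 0.226% and 0.214% in shDUSP23. With 2 libraries a group an exact two-sided permutation test of such a sum cannot go below p = 0.333.

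Most changes of single members were upward. Among the 136 tested members 25 rose and 5 fell in shDUSP23 at an adjusted p under 0.05 (limma on log2(FPKM + 0.5), Benjamini-Hochberg over all 13691 tested genes). Of all tested genes 23.1% rose and 22.2% fell, so the share of members that rose, 18.4%, was under the background, and the share that fell, 3.68%, was further under it. At an unadjusted p under 0.05, 37 members were higher and 9 lower. The median log2 fold change of the members was 0.30 (quartiles -0.10 and 0.56) against 0.03 over all tested genes, with 93 positive and 43 negative values. Both shDUSP23 libraries lay above both shMock libraries in 71 members and below them in 22, where 39.3% and 36.2% of all tested genes did so, which corresponds to 52.2% and 16.2% of the members. The counts depended on the control libraries: without shMock 1 they were 14 and 2 (15.4% and 14.0% of all genes), and without shMock 2 they were 6 and 1 (12.6% and 12.7% of all genes). These members were also called with all libraries.

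The members' median was close to that of the ZNF genes of other chromosomes. Of 211 tested ZNF genes elsewhere 57 rose and 11 fell (27.0% and 5.21%), with a median log2 fold change of 0.31. Of 708 other tested protein-coding genes of chromosome 19, 180 rose and 152 fell (25.4% and 21.5%), with a median of 0.06. In 12 tested zinc finger genes of chromosome 19 with other symbols 2 rose and 1 fell (16.7% and 8.33%), with a median of 0.30. The shares were 18.4% and 3.68% for the members and 23.1% and 22.2% for all tested genes. The share that rose was thus above that of all genes for ZNF genes elsewhere and under it for the members. These are descriptions of the lists, and the differences between them were not tested.

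**Figure D1:**
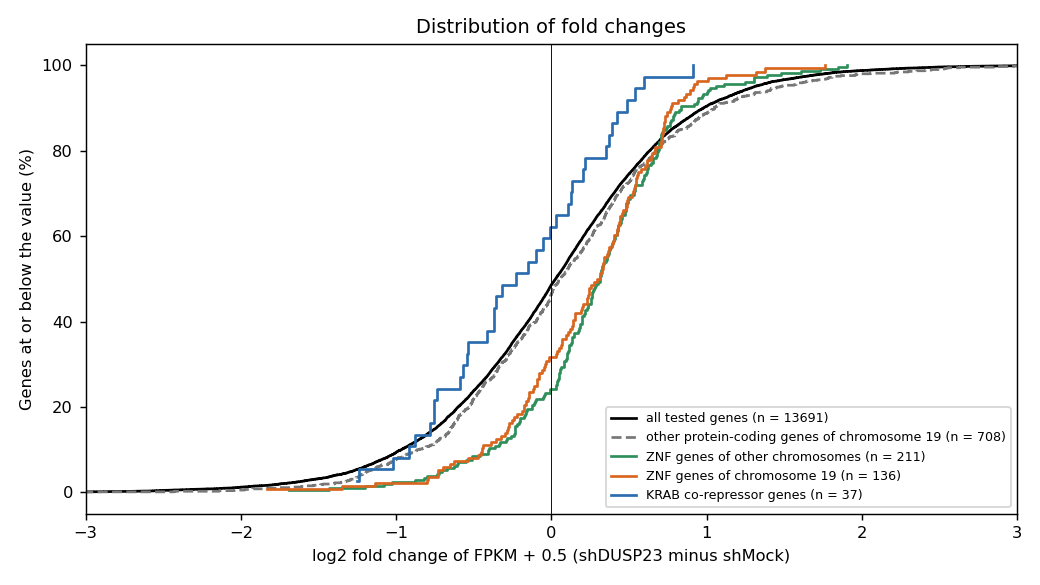
Cumulative share of tested genes (vertical axis, %) at or below each log2 fold change (horizontal axis, shDUSP23 minus shMock) for all tested genes, 3 groups of protein-coding genes and the KRAB co-repressor genes. The curves of the ZNF genes on chromosome 19 (median 0.30) and elsewhere (median 0.31) are near each other at the median. Their lower quartiles are -0.10 and 0.03. In their lower and middle part both lie to the right of all genes (median 0.03), and the co-repressors (median -0.23) lie to the left.

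The scale set the share of rises. When every library was rescaled to the same sum of FPKM, 57 members rose and 1 fell, where 35.9% and 11.3% of all genes did, and the median of all genes moved to 0.37 and that of the members to 0.63. The member that still fell was among the 5, and all 25 rises held. With median-ratio rescaling 20 members rose and 8 fell (20.4% and 24.4% of all genes), and with quantile normalization 17 rose and 8 fell (22.1% and 22.2% of all genes). With limma-voom on the recovered fragments 36 rose and 11 fell (25.6% and 25.5% of all genes). The share of rises among called members was 83.3% on the deposited scale, 98.3% with equal sums, 71.4% with median-ratio rescaling and 68.0% with quantile normalization. Among all called genes it was 51.0%, 76.2%, 45.5% and 49.9% in the same order. Relative to the median of all genes, the members' median lay from 0.21 to 0.38 higher in all 19 versions of the fit.

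The 8 largest rises among members averaging 2 FPKM or more in a group were all at least 1.96-fold by group means. ZNF160, a KRAB gene with 20 fingers (chr19:53066614-53103434), had 4.86 and 4.17 FPKM in shMock and 9.37 and 9.798 FPKM in shDUSP23. Its shDUSP23 values were about equal and lay above both controls (2.12-fold by group means, 95% interval of the log2 fold change from 0.58 to 1.44, limma adjusted p = 0.00306). ZNF264, with 13 fingers and KRAB (chr19:57191500-57222846), had 6.3003 and 6.36 FPKM in shMock and 11.1 and 14.2 FPKM in shDUSP23. The groups did not overlap (log2 fold change 0.93, SE 0.18, limma adjusted p = 0.0041). ZNF579, which matched no KRAB pattern and held 8 fingers (chr19:55576774-55580848), had 5.89 and 8.23 FPKM in shMock and 15.5 and 21.3 FPKM in shDUSP23. All values of the knockdown were above the controls, though the libraries of each group were further apart than for ZNF160 (2.60-fold by group means, 95% interval of the log2 fold change from 0.82 to 1.82, limma adjusted p = 0.00175). ZNF160, ZNF264 and ZNF579 kept their calls in all 18 alternatives.

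ZNF675, known as an inhibitor of TRAF6 signalling, had 1.098 and 2.297 FPKM in shMock and 4.12 and 4.098 FPKM in shDUSP23. ZNF14 had 2.27 and 1.97 FPKM in shMock and 4.60 and 4.299 FPKM in shDUSP23. ZNF416 had 4.56 and 2.91 FPKM in shMock and 7.55 and 7.098 FPKM in shDUSP23. In each of these 3 genes the shDUSP23 libraries were close together and above both controls, with log2 fold changes of 1.12, 0.92 and 0.91. Each call was lost when a control library was left out: that of ZNF675 without shMock 1, that of ZNF416 without shMock 2, and that of ZNF14 without either. Fewer of all tested genes were called in those fits as well, so the losses need not be particular to these 3 genes.

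The largest rises of all rested on 1 low control library each. ZNF296 had 0 and 1.697 FPKM in shMock and 3.13 and 2.98 FPKM in shDUSP23, and ZNF549 had 1.69 and 0.25 FPKM in shMock and 2.798 and 2.85 FPKM in shDUSP23. For both genes the knockdown libraries were alike and the controls far apart. Their fitted log2 fold changes of 1.76 (SE 0.60) and 1.37 (SE 0.47) had adjusted p = 0.041 and 0.0433 (limma). Without the low library they were 0.69 and 0.60 (adjusted p = 0.196 and 0.284), and the calls also ended in 8 and 6 other alternatives.

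The abundant members that rose had more fragments behind them. ZNF274 (chr19:58183029-58213562) is known to bring SETDB1 and TRIM28 to the 3' ends of ZNF genes. It had 16.8 and 15.98 FPKM in shMock and 32.8 and 28.03 FPKM in shDUSP23, from at least 975 fragments in each library. The groups were 1.86-fold apart by their means and did not overlap (log2 fold change 0.87, SE 0.14, limma adjusted p = 0.00169). ZNF558 (chr19:8806170-8832314), a KRAB gene known to repress SPATA18, had 19.5 and 17.7 FPKM in shMock and 30.7 and 28.2 FPKM in shDUSP23. It was 1.58-fold higher (log2 fold change 0.65, SE 0.14, limma adjusted p = 0.00552, and 0.0526 without shMock 2). ZNF766, the most abundant member of its positional group, went from 12.9 and 11.7 FPKM to 21.9 and 17.9 FPKM (log2 fold change 0.67, limma adjusted p = 0.0102, and 0.0812 without shMock 2).

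The other 14 rises had log2 fold changes from 0.54 in ZNF266 to 0.89 in ZNF699. Among these, chosen after its values were seen, was ZNF350, also called ZBRK1, a partner of BRCA1. It had 5.13 and 3.72 FPKM in shMock and 8.08 and 7.16 FPKM in shDUSP23, with no overlap between the groups (log2 fold change 0.73, SE 0.22, limma adjusted p = 0.0246). All 30 called members had groups that did not overlap, which a call with 2 libraries a group nearly entails, so it adds no support.

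**Figure D2:**
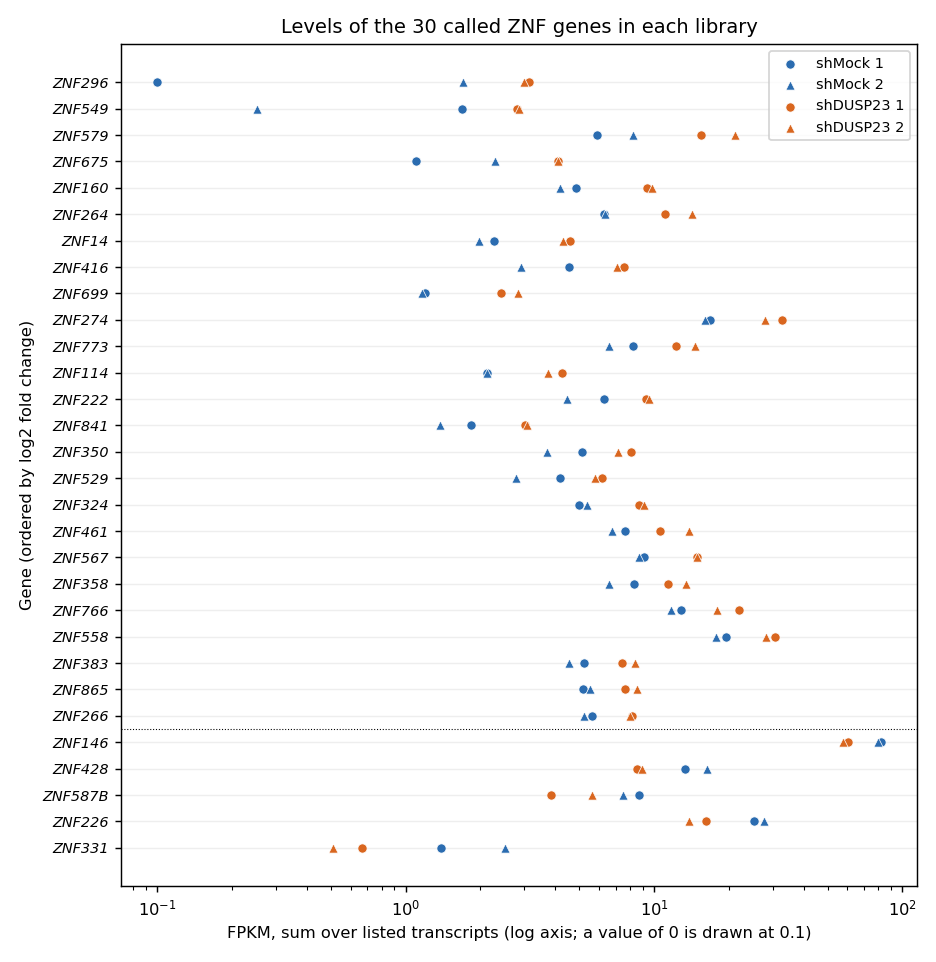
Level in each library (horizontal log axis, FPKM summed over listed transcripts; 0 drawn at 0.1) of the 30 ZNF genes that passed the test, ordered by log2 fold change, with the 5 that fell under the dotted line. Values of ZNF296 and ZNF549 are far apart in the 2 shMock libraries (0 and 1.697 FPKM, 1.69 and 0.25 FPKM), whereas those of ZNF146 lie close to the group means of 80.9 and 59.02 FPKM.

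The most abundant member fell. ZNF146 (chr19:36214602-36238771), also called OZF, is made almost only of fingers and has no KRAB domain. It had 81.9 and 80.01 FPKM in shMock and 60.5 and 57.6 FPKM in shDUSP23, from at least 4428 fragments a library. The controls lay together above the knockdown libraries, 1.37-fold by group means (log2 fold change -0.45, SE 0.11, limma adjusted p = 0.0117). The call depended on the scale, since with equal sums the log2 fold change was -0.12 (adjusted p = 0.457), and with GC content and length corrected it was -0.17 (adjusted p = 0.165). It also missed the threshold without a trend (0.0525), without shMock 1 (0.0599) and without shMock 2 (0.0506).

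ZNF226 (chr19:44165073-44178381) had 25.3 and 27.7 FPKM in shMock and 16.2 and 13.9 FPKM in shDUSP23. Both knockdown libraries were below both controls (log2 fold change -0.80, SE 0.15, limma adjusted p = 0.0029), and only the voom fit on fragments ended the call (log2 fold change -0.35, adjusted p = 0.0642). Among its transcripts the difference lay in one that codes for no finger. ZNF226-201, whose coding sequence of 94 residues held the KRAB pattern and 0 fingers, had 14.3 and 13.9 FPKM in shMock and 4.44 and 3.10 FPKM in shDUSP23. ZNF226-202, which codes for 803 residues with 17 fingers and holds the finger printed above, had 3.13 and 3.27 FPKM in shMock and 4.04 and 3.498 FPKM in shDUSP23. ZNF226-203, another form of 94 residues without a finger, had 1.18 and 1.88 FPKM in shMock and 2.43 and 3.27 FPKM in shDUSP23. ZNF226-201 was thus the highest of these transcripts in both controls and about level with ZNF226-202 in the knockdown. Such a split depends on how the authors' quantification divided shared fragments, which was not tested.

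ZNF428, whose coding sequence held 1 finger, had 13.3 and 16.3 FPKM in shMock and 8.51 and 8.903 FPKM in shDUSP23. Its knockdown values were alike and below both controls (log2 fold change -0.73, SE 0.17, limma adjusted p = 0.00855, but 0.0853 with equal sums and 0.102 without shMock 2). ZNF587B had 8.72 and 7.48 FPKM in shMock and 3.86 and 5.64 FPKM in shDUSP23 (log2 fold change -0.73, SE 0.23, limma adjusted p = 0.029). The call of ZNF587B ended in 6 alternatives, with adjusted p of 0.177 with equal sums, 0.183 without shMock 1, 0.0952 without shMock 2 and 0.0869 without shDUSP23 1. The fifth gene that fell, ZNF331, an imprinted gene, stayed under 2 FPKM in both group means and is named because it completes the count. It had 1.38 and 2.52 FPKM in shMock and 0.669 and 0.51 FPKM in shDUSP23 (log2 fold change -1.13, SE 0.36, limma adjusted p = 0.0336).

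The lowest fitted values of all were not called. ZNF627 had 4.07 and 4.68 FPKM in shMock and 3.25 and 0 FPKM in shDUSP23, and ZNF30 had 3.64 and 3.18 FPKM in shMock and 4.19 and 0 FPKM in shDUSP23. In both genes the single library at 0 was shDUSP23 2, the deepest one, and shDUSP23 1 was near the controls. Their limma adjusted p were 0.0784 and 0.214.

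Of the 6 most abundant members, ZNF302 and ZNF224 were not called. ZNF302 had 22.5 and 24.9 FPKM in shMock and 29.08 and 29.1 FPKM in shDUSP23, with no overlap and a log2 fold change of 0.29 (95% interval from -0.01 to 0.59, limma adjusted p = 0.099). It passed in 5 alternatives, among them equal sums (adjusted p = 0.00635) and the correction for GC content and length (0.00596). ZNF224, a KRAB repressor gene, had 24.3 and 24.6 FPKM in shMock and 25.4 and 29.1 FPKM in shDUSP23 (log2 fold change 0.15, 95% interval from -0.16 to 0.46, limma adjusted p = 0.394), and passed in 1 alternative, equal sums (adjusted p = 0.0254). By mean FPKM the order of the top members was ZNF146, ZNF302, ZNF224, ZNF558, ZNF274 and ZNF226. In shMock, the libraries of ZNF224 and ZNF302 overlapped between 22.5 and 24.9 FPKM with ZNF226 next above them, and in shDUSP23 the libraries of ZNF274, ZNF558, ZNF302 and ZNF224 overlapped between 25.4 and 32.8 FPKM.

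Transcripts with a complete coding sequence of 3 or more fingers held most of the members' level. They summed to 635 and 601 FPKM in shMock and 756 and 718 FPKM in shDUSP23, which was 74.0% and 72.3% of the members' FPKM in shMock and 76.3% and 75.1% in shDUSP23. The 34 transcripts with a complete coding sequence of fewer than 3 fingers went the other way, from 67.9 and 72.4 FPKM to 57.8 and 59.8 FPKM. The groups did not overlap in either sum, and ZNF226-201 makes up most of the second difference.

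Position along the chromosome was followed through 17 groups, a new group starting where the starts of neighbouring listed members were more than 1 Mb apart. In 9 of the 10 groups with at least 3 tested members the median log2 fold change was positive. The highest of these medians, 0.55, belonged to the group from ZNF175 to ZNF331 (chr19:51571283-53580269), with 4 rises and 1 fall among 13 tested members, or 30.8% and 7.69% where 23.1% and 22.2% of all tested genes rose and fell. The largest group, from ZNF628 to ZNF446 near the end of the long arm (chr19:55476617-58481230), had 8 rises and 1 fall among 45, or 17.8% and 2.22%, and a median of 0.36. The group from ZNF565 to ZNF573 (chr19:36182276-37779586) had 4 rises and 1 fall among 15 (26.7% and 6.67%) and a median of 0.37. On the short arm, the group from ZNF557 to ZNF846 (chr19:7069703-9768617) had 4 rises and 0 falls among 11 (36.4% rose) and a median of 0.33. With so few members a group, these shares are descriptions.

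The group from ZNF575 to ZNF296 (chr19:43525497-45076478) also held calls of both signs. ZNF222 and ZNF296 rose there, and ZNF226 and ZNF428 fell. These were 10.0% each way of 20 tested members, where 23.1% and 22.2% of all tested genes rose and fell. The median over the 20 was 0.06. The 1 negative median, -0.19, was that of ZNF546, ZNF780A and ZNF780B, none of which was called. ZNF780A had 20.3 and 20.6 FPKM in shMock and 19.9 and 16.2 FPKM in shDUSP23 (log2 fold change -0.19, limma adjusted p = 0.344). It passed as a fall in 1 alternative, the voom fit on fragments (-0.47, adjusted p = 0.0164). With equal sums the value of ZNF780A turned to 0.14, and the median of that group was positive as well. The leading members of 3 further groups were not called either: ZNF555 (log2 fold change 0.06), ZNF791 (0.53, limma adjusted p = 0.0623) and ZNF431 (-0.48). The sign of ZNF555 turned in 3 alternatives, while ZNF791 passed in 5 of them.

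**Figure D3:**
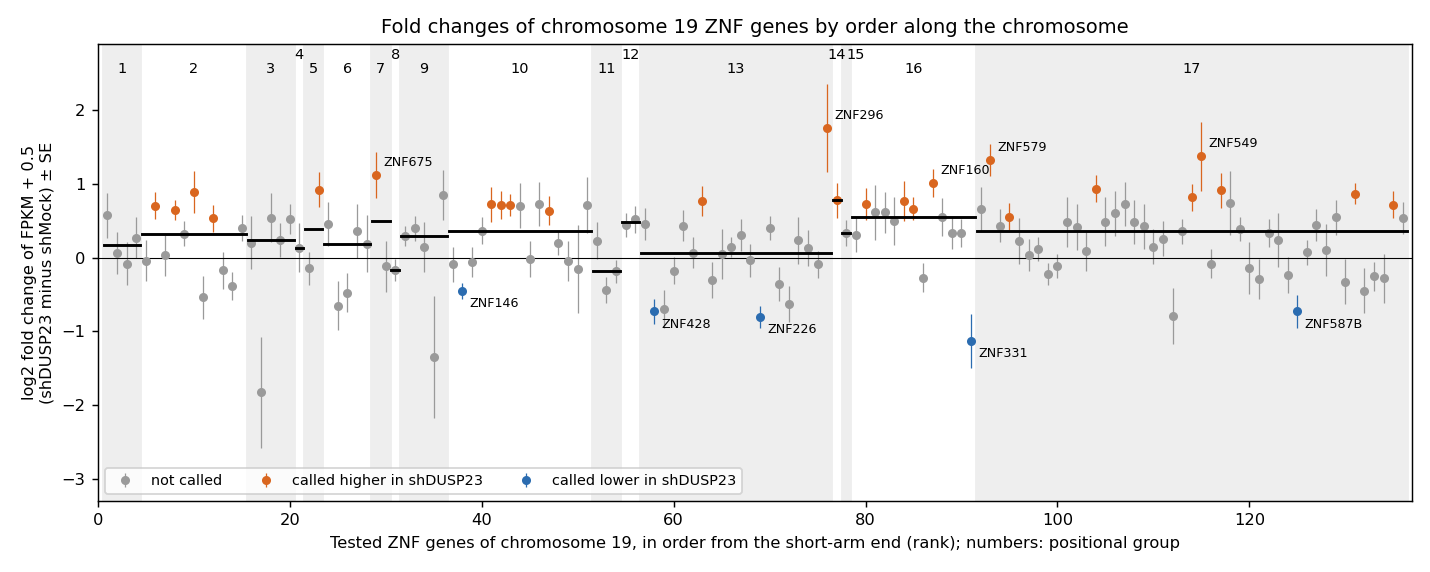
Log2 fold change ± SE (vertical axis, FPKM + 0.5, shDUSP23 minus shMock) of the 136 tested ZNF genes in their order along chromosome 19 (horizontal axis, rank), with the 17 positional groups shaded in turn and black bars at their medians. Rises (orange, 25) lie in groups 2, 5, 7, 10, 13, 14, 16 and 17, and the 5 falls (blue) in groups 10, 13, 16 and 17. The other groups hold no called member.

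Other coding genes inside these stretches did not share 1 pattern. Between ZNF628 and ZNF446, 17 tested protein-coding genes without a ZNF symbol had a median log2 fold change of 0.44, near that of the members. Between ZNF557 and ZNF846, 29 such genes had a median of 0.01, and between ZNF575 and ZNF296, 18 had a median of 0.29, above that of the members.

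Adjacent members were only weakly alike. Across 119 pairs of neighbouring tested members the log2 fold changes had a Spearman correlation of 0.10, and 71 pairs had the same sign. Because 93 of the 136 tested members had positive values, most pairs would share a sign without any likeness between neighbours. The correlation was 0.25 in 20 head-to-head pairs, 0.16 in 75 pairs on 1 strand and -0.26 in 24 tail-to-tail pairs. Neighbours share sequence as well as position, and the values are descriptions over pairs that share members. No pair was called in opposite directions. ZNF549 and ZNF550, tail to tail and 959 bases apart, had log2 fold changes of 1.37 and -0.08. ZNF569 and ZNF570, head to head and 327 bases apart, had -0.15 and 0.71, neither called. ZNF565 and ZNF146 overlap head to head, and ZNF565, at 3.39 to 4.39 FPKM in all libraries, had -0.09 beside the fall of ZNF146. The strandedness of the libraries is not given in the sources used here, so reads from overlapping members cannot be told apart.

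The members' responses followed none of 5 numeric features closely. Spearman correlations of log2 fold change over the 136 members were -0.02 with mean FPKM, 0.06 with transcript GC content, 0.00 with transcript length, 0.03 with the number of fingers and 0.07 with position. Over all tested genes log2 fold change went with GC content at 0.27, and between the shDUSP23 libraries of the members (2 minus 1) the same measure was 0.24. Of 83 tested members with the KRAB pattern 15 rose and 2 fell (median 0.33), and of 53 without it 10 rose and 3 fell (median 0.24). Of all tested genes 23.1% rose and 22.2% fell, so both shares were under the background in each class. The share that rose was nearly the same in the 2 classes. With the wider pattern the order of the medians turned, to 0.25 with and 0.38 without it. At 5 FPKM or more 17 of 56 members rose and 4 fell (30.4% and 7.14%), where 24.3% and 26.2% of all tested genes of that level did. Below 5 FPKM 8 of 80 members rose and 1 fell (10.0% and 1.25%), against 20.1% and 11.8% of all tested genes.

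The bases around the start sites were examined because many members moved the same way. RefSeq promoters (GRCh38.p14, 250 bases before to 50 after a start) were matched by symbol, chromosome and strand for 152 of the 167 members. Of these, 134 lay within 200 bases of the 5' end of the member's highest transcript. CCGGAAG, the core letters bound by ETS factors, was found on either strand in 42.8% of the member promoters, in 10.3% of all 35116 promoters of the table and in 20.3% of the promoters of 9671 tested protein-coding genes. It was in 13 of 24 matched members that rose and in 2 of 5 that fell, and the tested members with and without it had medians of 0.31 and 0.29. These counts include the 50 bases after the start. In the 250 bases before it alone, fewer of the members that rose held a match. GGGCGG, the core letters bound by SP1 and related factors, was in 13 of the 24 and in 1 of the 5, and the 75 tested members with it had a median of 0.36 against 0.14 in the 50 without it. The 13 tested members with ATGGCGG, the core letters bound by YY1, included no called member and had a median of 0.07, against 0.32 in the other 112. CCAAT was in 48.7% of member promoters and 36.7% of those of tested coding genes, GGGCGG in 59.2% and 72.9%, and TATAAA in 2.63% and 5.19%. ATGGCGG was in 9.21% and 11.2%, CACGTG in 3.95% and 10.3%, TGANTCA in 5.92% and 4.64%, and the interferon-stimulated response element in 0.658% and 2.84%. None of these motifs contains another. The 250 bases before the start are shown for 1 member that fell and 2 that rose, in the direction of the gene, with CCGGAAG or its reverse complement in capitals.
ZNF226 (chr19:44164850-44165099, plus strand): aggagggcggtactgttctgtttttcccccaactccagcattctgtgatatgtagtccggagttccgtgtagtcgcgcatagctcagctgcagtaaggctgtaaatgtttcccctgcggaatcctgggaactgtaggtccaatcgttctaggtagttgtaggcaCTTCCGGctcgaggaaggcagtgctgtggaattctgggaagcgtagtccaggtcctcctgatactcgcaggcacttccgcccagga
ZNF579 (chr19:55580849-55581098, minus strand): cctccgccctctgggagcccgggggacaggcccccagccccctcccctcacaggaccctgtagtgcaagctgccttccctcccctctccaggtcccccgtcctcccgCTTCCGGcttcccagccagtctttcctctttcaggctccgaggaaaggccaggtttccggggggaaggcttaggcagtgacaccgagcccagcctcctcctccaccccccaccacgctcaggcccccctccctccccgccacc
ZNF264 (chr19:57191250-57191499, plus strand): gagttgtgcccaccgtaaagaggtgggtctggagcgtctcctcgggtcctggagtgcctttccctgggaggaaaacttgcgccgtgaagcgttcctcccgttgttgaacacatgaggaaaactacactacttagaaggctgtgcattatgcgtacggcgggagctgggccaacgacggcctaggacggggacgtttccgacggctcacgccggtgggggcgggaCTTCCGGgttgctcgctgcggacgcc

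The match lay 86 bases before the start in ZNF226, 143 in ZNF579 and 26 in ZNF264, counted to its first base. The same letters thus stood before genes that rose and before one that fell. A match is a description of the sequence and shows no binding.

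The co-repressors that KRAB proteins use had lower fold changes than the members. Of 37 tested genes of the pathway list 4 rose and 11 fell, with a median log2 fold change of -0.23. The shares were 10.8% and 29.7%, against 23.1% and 22.2% of all tested genes, so that the share that rose was under the background and the share that fell somewhat above it. The list was chosen with earlier results of these data known. With equal sums the counts were 10 and 6 (27.0% and 16.2%, where 35.9% and 11.3% of all genes rose and fell), so the sign of the balance depended on the scale, and the median of the list turned to 0.09. The median of the list minus that of all genes lay between -0.29 and -0.12 in all 19 versions of the fit. Leaving out shMock 1, shMock 2 or shDUSP23 2 reduced the 4 rises to 1 each, where 15.4%, 12.6% and 20.7% of all genes rose.

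The NuRD histone chaperones fell most. RBBP4 had 54.9 and 59.6 FPKM in shMock and 25.04 and 22.5 FPKM in shDUSP23, and RBBP7 had 113 and 109 FPKM in shMock and 52.8 and 41.2 FPKM in shDUSP23. They were at 0.415 and 0.424 times their control means, without overlap (log2 fold changes -1.25 and -1.24, limma adjusted p = 0.000199 and 0.000306). The deacetylase genes HDAC1 and HDAC2 fell by 0.78 and 0.88 on the log2 scale, and CBX3, which encodes HP1 gamma, went from 168 and 163 FPKM to 91.2 and 83.9 FPKM. Genes of NuRD subunits did not all move 1 way: CHD3 (-0.59) and MBD3 (-0.74) fell, while CHD4 (0.49), GATAD2B (0.59) and MBD2 (0.91) rose. MBD2, a methyl-DNA binding subunit, went from 14.7 and 15.9 FPKM to 28.9 and 29.5 FPKM, and its call ended when protein-coding transcripts alone were used.

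TRIM28, the scaffold that KRAB domains bind, fell by less than most of these. It had 181 and 176 FPKM in shMock and 139 and 137 FPKM in shDUSP23 (log2 fold change -0.37, SE 0.11, limma adjusted p = 0.023). Its call ended in 8 alternatives, with a value of -0.03 (adjusted p = 0.822) with equal sums and adjusted p from 0.0537 to 0.102 when any 1 library was left out. SETDB1 had 15.7 and 15.5 FPKM in shMock and 15.4 and 15.6 FPKM in shDUSP23 (log2 fold change -0.01, SE 0.14), and its sign turned in 4 alternatives. The replication-linked genes UHRF1 (-1.02) and SUV39H1 (-0.75) and the SUMO gene SUMO2 (-0.54) made up the rest of the falls. MORC2, an ATPase of the HUSH silencing pathway, completed the rises at 0.54. The other 22 list members, among them DNMT1, CBX5 and TASOR, did not pass.

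**Figure D4:**
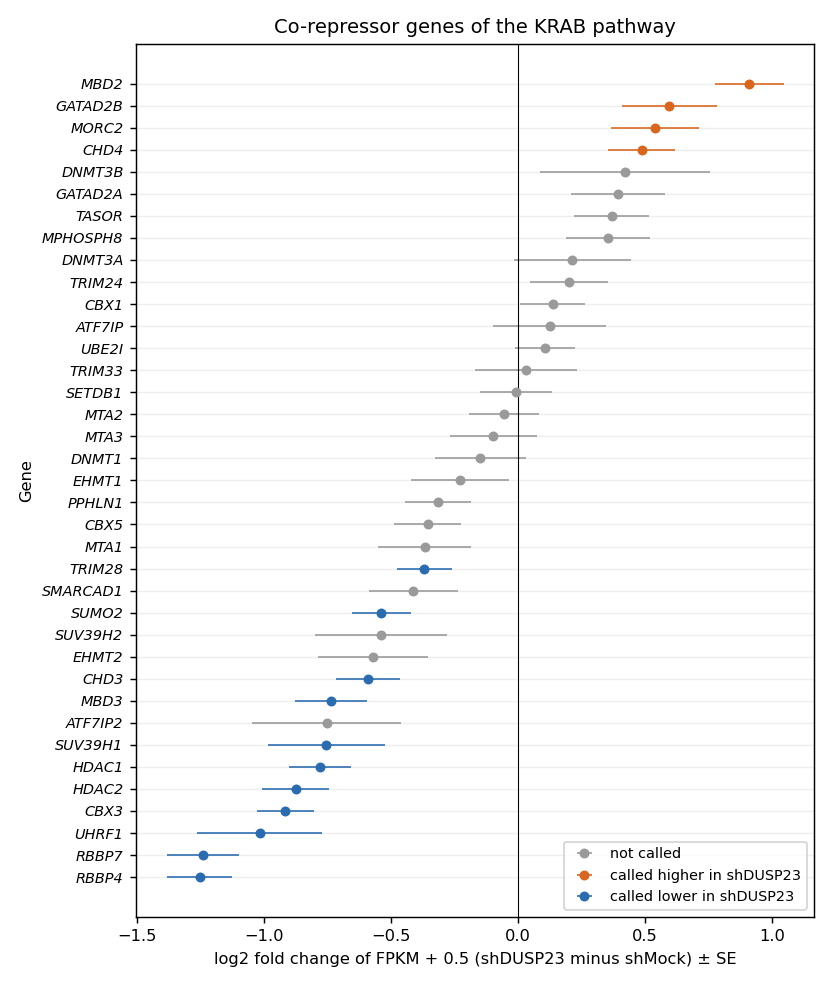
Log2 fold change ± SE (horizontal axis, FPKM + 0.5, shDUSP23 minus shMock) of the 37 tested co-repressor genes of the KRAB pathway, in order. The 11 falls reach from TRIM28 (-0.37) to RBBP4 (-1.25), and the 4 rises from CHD4 (0.49) to MBD2 (0.91).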

How the data were processed

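Gene expression was measured by RNA sequencing in 4 libraries, 2 per group. The deposited values are FPKM, computed by the authors for each Ensembl transcript; the submitters' processing notes name GRCh38 with STAR 2.7.1a and DESeq2 1.32.0. Which quantifier and annotation were used, and the strandedness, could not be taken from the labels. Depth per library was recovered from FPKM steps in single-transcript genes with GENCODE 29 lengths, where 82.9% to 85.3% of values up to 50 fragments were whole within 0.1 fragment.

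FPKM were summed per gene. Genes averaging 1 FPKM or more entered limma 3.58.1 (R 4.3.3; lmFit, then eBayes with trend) as log2(FPKM + 0.5), without covariates, two-sided, called at a Benjamini-Hochberg adjusted p under 0.05 over all genes tested. A fold change on this scale understates the change of low genes. Named were the 8 largest rises and falls among called members averaging 2 FPKM or more in a group, with groups apart (only 4 falls met this), the 6 most abundant members, the most abundant one in each positional group with at least 3 tested members, 6 co-repressors with the smallest p, TRIM28, SETDB1 and DUSP23. Members and lists were chosen with earlier results of these data known, and some list genes are not reported here. Neighbours called in opposite directions were to be named, and there were 0. Fingers and KRAB patterns came from GENCODE 29 coding sequences translated for this purpose, in place of a protein table. The patterns were C..C or C....C followed by 12 residues and paired histidines 3 to 5 residues apart, and F.DV...F...EW..L, where a point is any residue. Near-identical paralogs share reads, so single members are uncertain to that extent. The 18 alternatives are given in the closing section, and the fit was tested on simulated data. Python 3.11.15, numpy 2.4.6, pandas 2.3.3, scipy 1.17.1 and matplotlib 3.10.9 were used.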

Additional observations from a re-analysis of the deposited data

How the results depend on the processing

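The design has 2 libraries per group, so leaving out 1 leaves a lone library that is assumed to vary like the others. Over these fits members that rose numbered 6 to 27 and members that fell 1 to 10; ZNF genes elsewhere 22 to 56 and 4 to 22; other coding genes of chromosome 19, 112 to 211 and 76 to 157; co-repressors 1 to 6 and 8 to 13; other zinc finger genes of the chromosome 2 to 3 and 0 to 1. With equal sums the rises and falls were 57 and 1 for members, 104 and 4 for ZNF genes elsewhere, 295 and 73 for other genes of the chromosome, 10 and 6 for co-repressors, and 6 and 0 for its other zinc finger genes. Members that fell numbered 8 with median-ratio rescaling, 8 with quantile normalization and 11 with voom, where ZNF genes elsewhere that fell numbered 18. Other genes of the chromosome that fell numbered 234 after GC and length correction and 245 with the replicate block added to it. Other zinc finger genes that fell numbered 2 in both of these fits and without a trend, and 0 with protein-coding transcripts alone, where co-repressors that rose numbered 2. The shares over all tested genes moved as well. In the main fit 23.1% rose and 22.2% fell, with equal sums 35.9% and 11.3%, with median-ratio rescaling 20.4% and 24.4%. With quantile normalization they were 22.1% and 22.2%, and with voom 25.6% and 25.5%. Fewer of all tested genes were called without a shMock library. Not given here are such shares for fits with GC correction, the block, no trend, protein-coding transcripts alone, or without shDUSP23 1. The counts alone thus do not set the lists apart, and the cause of these shifts was not tested.

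Signs that turned were those of genes near 0. ZNF780A had 0.14 with equal sums and 0.00725 after GC and length correction, also with the block. SETDB1 had 0.32 with equal sums, 0.080 with protein-coding transcripts alone and 0.040 with voom, and -0.0199 to 0.00203 when 1 library was left out, turning without shDUSP23 1. ZNF555 had -0.090 with quantile normalization and -0.20 to 0.33 when 1 library was left out, turning without shMock 1 and without shDUSP23 2.

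Same-numbered libraries did not deviate together (correlation of deviations 0.05), so the numbers were not taken to pair them. With the replicate block 25 members rose and 7 fell, and 17 ZNF genes elsewhere fell. In that fit rises made up 78.1% of called members and 50.7% of all called genes. The median stayed positive in 6 to 10 positional groups over the alternatives; in the fit at a mean of at least 5 FPKM fewer groups had 3 tested members. Pseudocounts of 0.1 and 1 FPKM, no filter, a mean of at least 5 FPKM and robust eBayes moved no count of calls by more than 1.5 times. Depth limited the low members: 5 tested members had fewer than 30 fragments in a library.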

Other observations

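ZNF-named genes of chromosome 19 that are not protein-coding lay outside the rule, and 5 were listed. The antisense gene ZNF529-AS1 had 1.15 and 1.39 FPKM in shMock and 2.07 and 1.72 FPKM in shDUSP23. Its groups did not overlap, but it was not called (log2 fold change 0.44, SE 0.30, limma adjusted p = 0.259). ZNF460-AS1 had 0.182 and 0.153 FPKM in shMock and 0.477 and 0.671 FPKM in shDUSP23 and was under the filter. ZNF8-ERVK3-1, a noncoding transcript named after ZNF8 and an endogenous retrovirus, had 1.76 and 2.22 FPKM in shMock and 1.91 and 2.96 FPKM in shDUSP23, with overlapping groups.

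Transcripts of single members did not always follow their gene. In ZNF302, which was not called, ZNF302-214 had 2.05 and 2.31 FPKM in shMock and 6.27 and 4.39 FPKM in shDUSP23. Its retained-intron transcript ZNF302-212 had 2.27 and 2.95 FPKM in shMock and 1.38 and 1.80 FPKM in shDUSP23. In ZNF780A, ZNF780A-203, with 17 fingers, had 7.14 and 7.49 FPKM in shMock and 4.57 and 4.27 FPKM in shDUSP23, whereas ZNF780A-204, also with 17 fingers, had 3.29 and 1.95 FPKM in shMock and 4.47 and 2.42 FPKM in shDUSP23. These transcripts were picked with their values in view and not tested.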
